A study of Mus musculus with 9 samples.

Results

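Genes of the unfolded protein response, the integrated stress response and the heat shock response were followed in mouse LSK cells with and without Abi1. The 36 genes were listed by symbol in 6 branches: the ER stress sensors with XBP1, ER chaperones and folding enzymes, ER-associated degradation, the integrated stress response, cytosolic heat shock and the mitochondrial chaperonin. A gene was measured where the array annotation gave it a probeset (the group of probes that reads 1 transcript) with no other gene's symbol, and the brightest such probeset stood for the gene. By this rule 30 of the 36 were measured, among 30142 genes in all. Pdia4 and Manf of the ER, Hspa1b and Dnaja1 lay only on probesets shared with other genes, and Hsp90ab1 and Hsf1 were not matched to a probeset, so these 6 have no value here.

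Proteins entering the endoplasmic reticulum (ER) are folded there by chaperones such as BiP, the product of Hspa5. When unfolded protein builds up, the sensors IRE1 (Ern1), PERK (Eif2ak3) and ATF6 are activated, IRE1 splices the Xbp1 transcript, and the resulting factors raise chaperones and the ER-associated degradation machinery. PERK and related kinases also phosphorylate the translation factor eIF2, which lowers general protein synthesis but favours translation of ATF4, the factor that drives Ddit3 (CHOP), Trib3, Chac1 and Asns. The heat shock response is separate: HSF1 raises cytosolic chaperones when proteins unfold in the cytosol. In blood stem cells, low protein synthesis and activity of these pathways are known to bear on how the cells survive stress.

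LSK cells are bone marrow cells that lack the surface markers of mature lineages but have Sca-1 and c-Kit on their surface; haematopoietic stem cells are among them. The knockout (KO) mice were Abi1(fl/fl) with the Mx1-Cre transgene, which deleted Abi1 to Abi1(-/-) (n = 4). The wild-type (WT) mice were Abi1(fl/fl) without Cre (n = 5). Mx1-Cre is driven by an interferon-responsive promoter that acts in many cell types besides LSK cells. Mice of both groups were given poly(I:C), an interferon inducer, in 3 injections at 8 to 9 weeks, and marrow was taken at 12 to 14 weeks. Only KO mice carried Cre, so effects of Cre and of the deletion cannot be told apart. Each array held the amplified RNA of 1 mouse, from 5 ng, and values are log2 signals.

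Abi1, which encodes an adaptor of the actin-regulating WAVE complex, lay at 5.59 to 6.11 in KO and 11.49 to 11.65 in WT, so the labels matched the targeted gene. Among the listed LSK identity genes, 10 were measured and all 10 were above background; Ly6a, which encodes Sca-1, was not measured. Background, the level that 95% of 1717 odorant and vomeronasal receptor genes stay under, was 5.29 to 5.64 per array. The arrays least like the rest were KO replicate 1 (median correlation across genes 0.986) and WT replicate 5 (0.989); the remaining 7 had medians of 0.993 to 0.996. A marker score is the mean deviation of a list's genes from their means over 9 arrays, in log2. The neutrophil score was 1.62 and 1.61 in KO replicates 1 and 2. The erythroid and megakaryocyte scores were -3.31 and -1.47 in WT replicate 5. Immediate early genes, which cells switch on within minutes of a stimulus, scored -0.91 and -0.99 in WT replicates 2 and 3 and -0.03 to 0.70 elsewhere. In sorted bulk cells, fewer cells of a type and less RNA per cell cannot be told apart.

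Of the 30 stress genes, 28 had a mean signal above background; Trib3, at a mean of 4.46, and Chac1, at 4.74, did not. No member passed the comparison of KO with WT (limma, smallest adjusted p = 0.786), where 0.00332% of all genes, Abi1 alone, did. At an unadjusted p under 0.05, 4 of the 30 members (13.3%) had higher means in KO: the integrated stress genes Atf4 and Ddit3, the ER co-chaperone gene Dnajb9 and the heat shock co-chaperone gene Bag3. The share among all genes was 3.82%. No member had a lower mean at that level, against 1.19% of all genes. Without KO replicate 2, Atf4 was the 1 member at that level in limma, with an exact permutation p of 0.107. On the values as deposited, Dnajb9 was the 1 member whose groups did not overlap with KO above WT, as 0.68% of all genes did. Means were higher in KO for 18 of 30 members (60.0%), against 63.9% of all genes and 54.3% of genes above background. The median difference of the members was 0.037, against 0.034 for all genes and 0.018 for genes above background. By branch, 0 of 4 sensor genes, 6 of 9 ER chaperone genes, 1 of 3 degradation genes, 4 of 5 integrated stress genes, 6 of 7 heat shock genes and 1 of 2 chaperonin genes had higher means in KO. The 4 of 5 and the 18 of 30 take in Trib3 and Chac1, which lay below background and carry no direction.

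**Figure D1:**
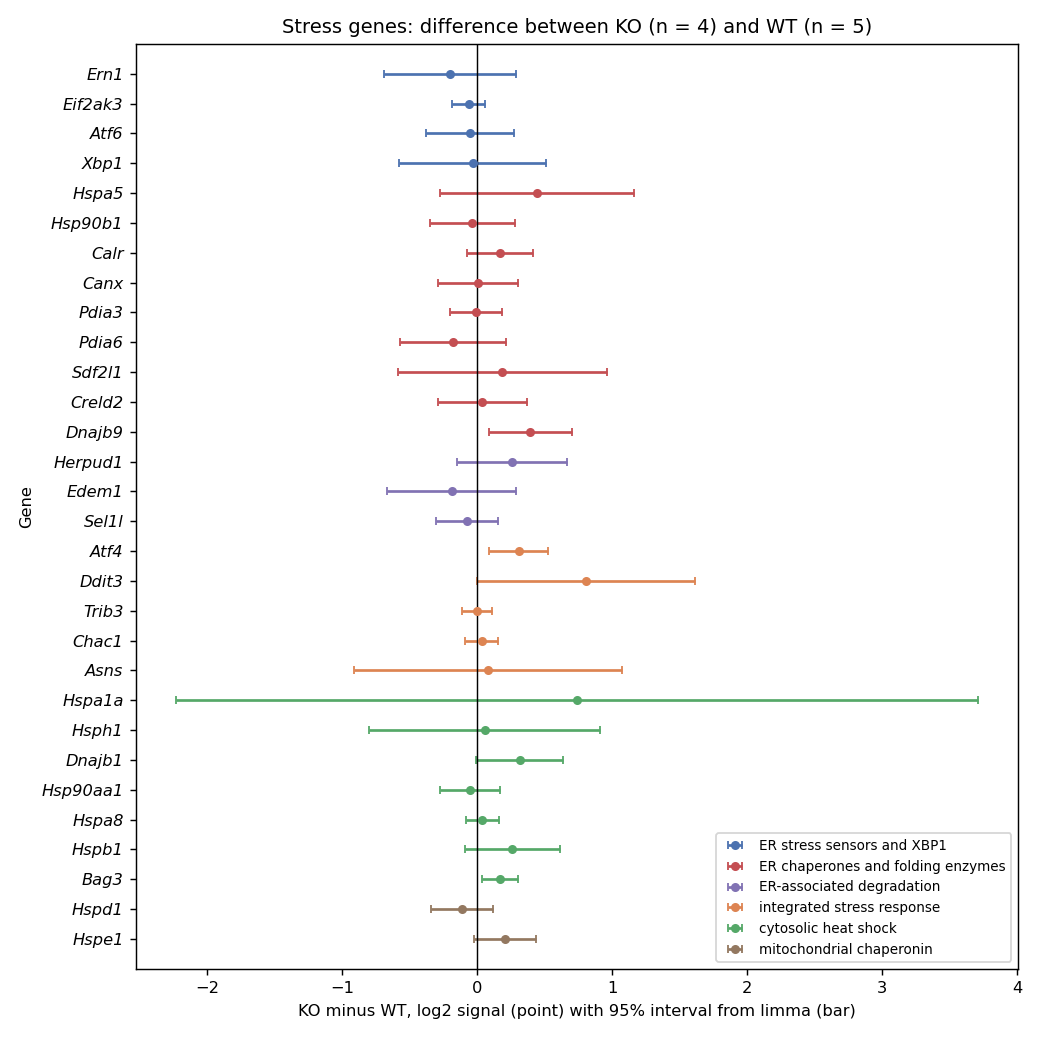
Difference between KO (n = 4) and WT (n = 5) in log2 signal for each of the 30 measured stress genes, on the horizontal axis, with points for the difference, bars for the 95% interval from limma and colours for the branches. The intervals of Dnajb9, Atf4, Bag3 and Ddit3 lie to the right of 0 before adjustment, and that of Hspa1a runs from -2.23 to 3.71.

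The variation among mice was uneven across these genes. The spread of Hspa1a within groups (SD 2.12) was at the percentile 99.8 of genes above background. Asns was at the percentile 97.7, Hsph1 at 95.7, Ddit3 at 94.97, Sdf2l1 at 94.4 and Hspa5 at 93.1. At the other end, Eif2ak3 was at the percentile 8.79 and Hspa8 at 8.86. The heat shock branch thus held the most variable member and, in Hspa8, one of the steadiest. What the Hspa8 probeset reads is uncertain, and its signal was near the table's highest value. Over the 30 members, KO replicate 4 was highest for 7 members, KO replicate 2 for 6 and WT replicate 4 for 5. WT replicate 5 was lowest for 9 members, KO replicate 1 for 8 and WT replicate 2 for 6, not counting ties. The same counts over all genes are not given here, so these cannot be read as particular to the stress genes. KO replicate 1 and WT replicate 5 were also the arrays least like the rest across all genes.

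**Figure D2:**
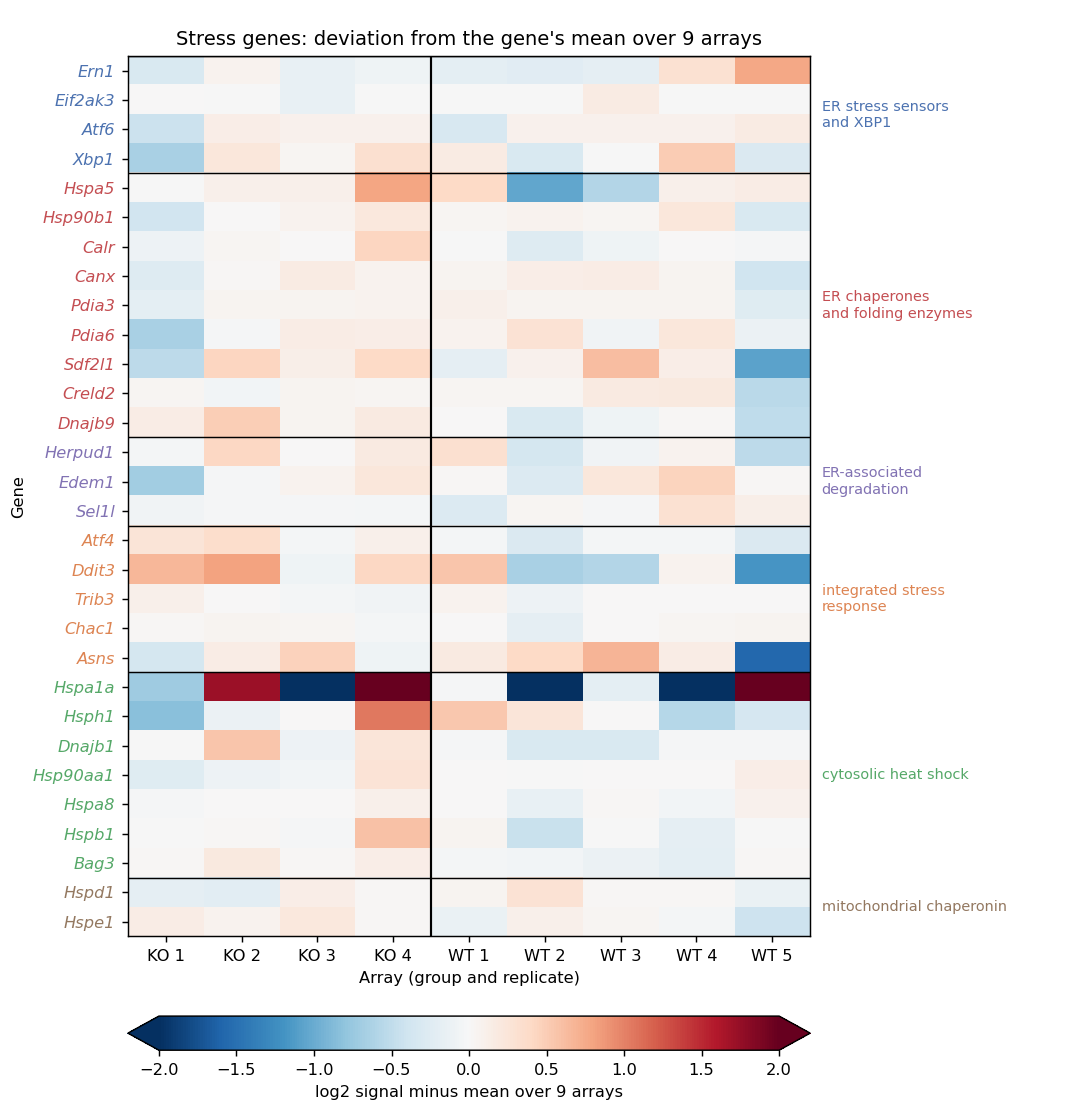
Deviation of each array from the gene's mean over 9 arrays, in log2 signal, for the 30 measured stress genes (rows, grouped by branch) in 4 KO and 5 WT arrays (columns); red is above and blue below the mean, and colours stop at 2. Hspa1a exceeds the colour scale, and the blue cells of the ER chaperones gather in KO replicate 1 and WT replicate 5.

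The means of all 4 sensor genes were slightly lower in KO, each by less than its standard error or close to it. Without KO replicate 1 and WT replicate 5 those of Ern1, Atf6 and Xbp1 were higher, by 0.031, 0.12 and 0.099. PERK's gene Eif2ak3 was at 7.83, 7.81, 7.67 and 7.81 in KO replicates 1 to 4 and at 7.81, 7.81, 7.98, 7.81 and 7.81 in WT replicates 1 to 5. Its difference was -0.064, with a 95% interval from -0.18 to 0.057. Atf6, which encodes a membrane-bound transcription factor freed by cleavage in the Golgi, ran from 10.47 to 11.03 in KO and 10.58 to 11.07 in WT. The low values were KO replicate 1 and WT replicate 1, and the difference was -0.054 (SE 0.14). Eif2ak3, Atf6 and Pdia3 each held one identical value in 5 or more of the 9 arrays, as 13.2% of genes above background did.

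Ern1, which encodes the kinase and RNase that splices Xbp1, was at 10.96, 11.34, 11.12 and 11.18 in KO and 11.06, 11.03, 11.08, 11.56 and 12.03 in WT. WT replicates 4 and 5 were the high arrays, the other 3 WT arrays lay within the KO range, and the difference was -0.20 (SE 0.21, interval -0.69 to 0.29). Xbp1 was at 10.53, 11.41, 11.22 and 11.50 in KO and 11.35, 10.88, 11.18, 11.70 and 10.89 in WT. Its groups overlapped, with a difference of -0.035 (SE 0.24). The probesets read total transcript, so spliced and unspliced Xbp1 were not separated.

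Xbp1 was highest in WT replicate 4, where plasma cell markers were also highest. Averaged over the 8 plasma cell markers, the log2 level of that array lay 1.09 above the mean of the 9 arrays, and those of the other 8 arrays deviated from it by -0.42 to 0.21. There the antibody joining chain gene Jchain was at 13.83 (9.40 to 12.10 in the other arrays), Mzb1 at 8.01 (5.38 to 6.67), Irf4 at 7.19 (5.03 to 5.71) and Sdc1 at 6.81 (6.08 to 6.25). Of the 8 plasma cell markers, 7 were above background and Prdm1 was not. Hsp90b1, Edem1, Sel1l and Creld2 also had their highest values in that array. The part of such cells in these values was not tested.

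Among the ER chaperones, Sdf2l1 and Hspa5 varied most between mice, and Dnajb9 had the largest shift for its error. Hspa5 was at 13.54, 13.64, 13.64 and 14.34 in KO replicates 1 to 4 and at 13.94, 12.50, 12.96, 13.64 and 13.69 in WT replicates 1 to 5. KO replicate 4 was the high array and WT replicates 2 and 3 the low ones, and the groups overlapped through WT replicates 1, 4 and 5, which lay within the KO range. The difference was 0.44 (SE 0.31, interval -0.28 to 1.16; 1.36-fold). WT replicates 2 and 3 were also the arrays with the low immediate early genes. Without them, a choice made after seeing the data, the difference of Hspa5 was 0.033 (exact permutation p = 1.0); the part of the immediate early genes was not tested. Hsp90b1 (GRP94), the ER member of the HSP90 family, ran from 14.58 to 15.17 in KO and 14.65 to 15.18 in WT, a difference of -0.037 (SE 0.14). KO replicate 1 and WT replicate 5 were its lowest arrays. Calr, the lectin chaperone calreticulin, was at 14.57, 14.71, 14.67 and 15.09 in KO and 14.65, 14.41, 14.58, 14.67 and 14.64 in WT, with KO replicate 4 high and a difference of 0.17 (SE 0.11). Its membrane-bound relative Canx differed by 0.0055 (SE 0.13), with WT replicate 5 at 13.79 and KO replicate 1 at 13.93 below the 14.21 to 14.35 of the other 7.

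The disulfide isomerase genes Pdia3 and Pdia6 differed by -0.010 (SE 0.085) and -0.18 (SE 0.17). Pdia3 was at 13.47 in KO replicate 1 and 13.43 in WT replicate 5, and at 13.72 to 13.76 in the other 7. Pdia6 was at 10.44 in KO replicate 1 and 10.97 to 11.37 elsewhere. Sdf2l1, which encodes a partner of the BiP cycle, was at 11.11, 12.06, 11.75 and 12.03 in KO and 11.45, 11.72, 12.25, 11.77 and 10.57 in WT. Its low arrays were again KO replicate 1 and WT replicate 5, and the difference of 0.19 had an SE of 0.34. Creld2, an ER stress-induced disulfide isomerase-like protein gene, lay between 11.51 and 11.75 in 8 arrays and at 11.02 in WT replicate 5.

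Dnajb9 (ERdj4), a co-chaperone of BiP induced through XBP1, was at 12.81, 13.16, 12.71 and 12.84 in KO and 12.67, 12.35, 12.57, 12.69 and 12.16 in WT. All 4 KO arrays lay above all 5 WT arrays, the closest being KO replicate 3 at 12.71 and WT replicate 4 at 12.69. The difference was 0.39 (SE 0.13, interval 0.086 to 0.70; 1.31-fold). Its unadjusted limma p was 0.0181, its adjusted p 0.786, and its exact two-sided permutation p 0.0238 before adjustment, where 0.00794 is the smallest that 4 arrays against 5 allow. Without KO replicate 2, the highest array, the difference was 0.30 (exact permutation p = 0.0893). With each array centred on its median it was 0.345 (exact permutation p = 0.0635), and with quantile normalization 0.36 (exact permutation p = 0.0476). The array median of KO replicate 1 was 5.33, against 5.08 to 5.15 in the others. After centring, KO replicate 1 lay below WT replicate 4, so the groups overlapped.

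The ER stress element, the sequence through which ATF6 and XBP1 act with NF-Y, was searched for in the RefSeq promoter windows (250 bases before to 50 after each start, assembly GRCm38.p6). The search used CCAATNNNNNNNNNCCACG on both strands. It was found in 39 of 32851 windows (0.119%) and in 6 of the 30 listed genes that have a window, all 6 among the ER chaperones and folding enzymes. They are shown because these 6 genes carry the known element of the branch, so that their values across arrays can be set beside it. Each line gives the element in capitals with 8 bases on either side, written so that it starts with CCAAT; for Calr, Creld2 and the second Hsp90b1 match this is the strand opposite to the gene's. Those of Canx, Pdia6 and Creld2 were added because the search found them.
Hspa5 (chr2:34772017-34772051, plus strand): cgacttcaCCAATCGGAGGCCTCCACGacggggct
Hsp90b1, far match (chr10:86705630-86705664, minus strand): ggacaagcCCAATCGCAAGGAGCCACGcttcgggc
Hsp90b1, near match (chr10:86705525-86705559, plus strand): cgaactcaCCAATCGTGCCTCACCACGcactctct
Calr (chr8:84847067-84847101, plus strand): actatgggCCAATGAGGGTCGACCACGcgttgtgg
Canx (chr11:50325792-50325826, minus strand): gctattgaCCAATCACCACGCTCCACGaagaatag
Pdia6 (chr12:17266483-17266517, plus strand): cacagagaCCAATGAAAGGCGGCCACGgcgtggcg
Creld2 (chr15:88819512-88819546, minus strand): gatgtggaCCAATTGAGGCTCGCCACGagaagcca

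Counted from the end nearest the gene, the element lies 47 bases before the start of Hspa5 and 194 and 89 before that of Hsp90b1. In Calr, Canx, Pdia6 and Creld2 it lies 144, 127, 80 and 108 bases before. The stretch of 150 bases just before the Hspa5 start (chr2:34771940-34772089, plus strand) is shown because the gene is the main reporter of ER stress in this set. The exact match is in capitals.
Hspa5 promoter: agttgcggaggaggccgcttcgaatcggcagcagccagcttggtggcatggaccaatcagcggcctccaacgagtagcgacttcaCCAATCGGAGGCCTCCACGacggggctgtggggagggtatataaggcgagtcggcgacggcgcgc
The 6 genes with the element did not all move together across the arrays. With group means removed, correlations between pairs of them ran from -0.24 to 0.87 with a median of 0.37. The median was 0.19 over all members above background and 0.023 over all genes above background. Hspa5 had a median of 0.073 with the other 5. Among all ER chaperones the median was 0.52, and 0.052 without KO replicate 1 and WT replicate 5. Their differences between KO and WT ran from -0.18 (Pdia6) to 0.44 (Hspa5). A match is a description of the letters and not a site of binding.

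In the degradation branch the ubiquitin-like membrane protein gene Herpud1 went with Dnajb9, and Edem1 with Xbp1. Herpud1 was at 12.44, 12.90, 12.50 and 12.67 in KO and 12.80, 12.13, 12.41, 12.56 and 11.96 in WT, a difference of 0.26 (SE 0.18). Its groups overlapped through WT replicate 1, and WT replicates 2 and 5 were lowest, as for Dnajb9. Edem1, which encodes a lectin that marks misfolded glycoproteins, ran from 9.93 to 10.86 in KO and 10.35 to 11.08 in WT (difference -0.19, SE 0.21), with KO replicate 1 lowest. Sel1l, an adaptor of the HRD1 ubiquitin ligase, lay at 7.45 to 7.49 in KO and 7.25 to 7.82 in WT (difference -0.075, SE 0.10). ER stress element II, searched as ATTGG and CCACG with any 1 base between them on both strands, was in 0.0365% of promoter windows and in that of Herpud1 alone among the members, shown in capitals.
Herpud1 (chr8:94386369-94386395, plus strand): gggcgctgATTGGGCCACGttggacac

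The integrated stress branch held 2 of the 4 members with an unadjusted p under 0.05, and both members that were not above background. Atf4, the transcription factor of the branch, was at 11.16, 11.26, 10.87 and 11.00 in KO replicates 1 to 4 and at 10.86, 10.62, 10.86, 10.87 and 10.62 in WT replicates 1 to 5. The lowest KO array equalled the highest WT array at 10.87, and the other 3 KO arrays lay above all WT arrays. The difference was 0.31 (SE 0.096, interval 0.086 to 0.53; 1.24-fold), with an unadjusted limma p of 0.0122, an adjusted p of 0.786 and an exact two-sided permutation p of 0.0159. The difference stayed at 0.24 to 0.37 with each array left out in turn. Without KO replicate 2, the highest array, it was 0.24 (exact permutation p = 0.107).

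Ddit3, which encodes the pro-apoptotic factor CHOP and is an ATF4 target, was at 12.22, 12.37, 11.47 and 11.98 in KO and 12.12, 10.91, 10.97, 11.63 and 10.39 in WT. WT replicates 2, 3 and 5 lay below every KO array, and WT replicates 1 and 4 lay within the KO range. The difference was 0.81 (SE 0.35, interval 0.0014 to 1.61; 1.75-fold), with an unadjusted limma p of 0.0497 and an exact permutation p of 0.0873. A second probeset of Ddit3 gave 1.06. The unadjusted p was above 0.05 without KO replicate 1, 2 or 4 or WT replicate 2, 3 or 5, and the difference ran from 0.60 to 1.04 with each array left out.

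Both the high and the low arrays of Ddit3 and Atf4 also differed in other genes. KO replicates 1 and 2, the highest for both, had the highest neutrophil scores (1.62 and 1.61, against -1.03 to 0.29 in the other 7). The B cell score was 0.07 to 0.24 in KO and -0.18 to 0.03 in WT, and the score of mast cells and basophils 0.18 to 0.47 and -0.92 to 0.20. Above background were 7 of 10 neutrophil markers (not Mmp8, Retnlg or Ly6g), 3 of 5 measured B cell markers (not Ms4a1 or Pax5) and all 6 of mast cells and basophils. WT replicate 5 was lowest for Ddit3 at 10.39 and, with WT replicate 2, for Atf4 at 10.62. Its Fos was at 14.65, and its erythroid and megakaryocyte scores were -3.31 and -1.47. All 7 measured erythroid markers were above background, as were 6 of 7 of megakaryocytes (not Gp6). The part of such cells in the differences was not tested. WT replicate 3 was low for Ddit3 at 10.97, while its Atf4 of 10.86 equalled that of WT replicate 1. In WT replicates 2 and 3, Fos was at 13.73 and 13.71 against 14.65 to 15.03 in the other 7, and all 15 measured immediate early genes were above background, with mean log2 levels over the list of 12.30 to 12.80 in KO and 11.12 to 12.42 in WT. Without these 2 arrays, the difference of Ddit3 was 0.63 (exact permutation p = 0.286) and that of Atf4 0.29 (0.0857), while Dnajb9 differed by 0.37 (0.0571) and Bag3 by 0.17 (0.171). Without KO replicate 1 and WT replicate 5, Ddit3 differed by 0.53 (exact permutation p = 0.229), Atf4 by 0.24 (0.0571), Dnajb9 by 0.33 (0.0286) and Bag3 by 0.22 (0.0286). In both reduced sets 0.0286 is the smallest p that 4 arrays against 3 allow, and none is adjusted. All 4 differences kept their direction in both sets. The part of the immediate early response in these values was not tested.

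**Figure D3:**
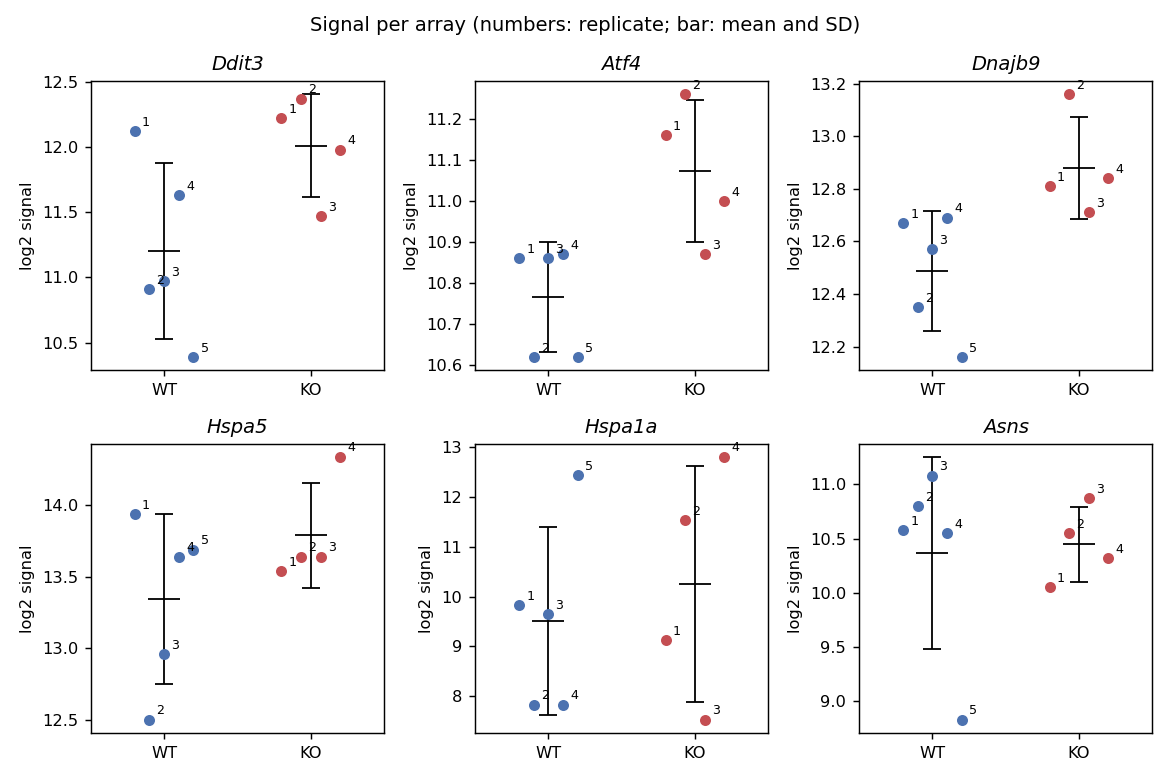
Log2 signal per array of Ddit3, Atf4, Dnajb9, Hspa5, Hspa1a and Asns in WT (blue, n = 5) and KO (red, n = 4), with replicate numbers beside the points and bars for the mean and SD; each panel has its own axis, which does not start at 0. The 4 KO arrays of Dnajb9 all lie above the 5 WT arrays. The groups meet at 10.87 for Atf4 and overlap for Ddit3, Hspa5, Hspa1a and Asns.

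Asns, the asparagine synthetase gene and an ATF4 target, was at 10.05, 10.55, 10.87 and 10.32 in KO and 10.58, 10.80, 11.08, 10.55 and 8.83 in WT. WT replicate 5 was the single low array, and the difference of 0.080 (SE 0.43) became -0.31 without it. Trib3, a pseudokinase gene induced by ATF4 and CHOP, ran from 4.39 to 4.55 over all 9 arrays, and Chac1, which encodes a glutathione-degrading enzyme, from 4.56 to 4.80. Both lay below background in every array, so their differences of -0.0010 and 0.032 carry no direction. The CARE element TGATGNAA, which binds ATF4 with a C/EBP partner, was in 3.97% of all windows and in those of Asns, Chac1, Trib3 and Herpud1, on either strand. They are shown for 3 of these (Trib3's match lies after its start) because 2 of the 4 genes were below background and 2 were not.
Asns (chr6:7693217-7693240, minus strand): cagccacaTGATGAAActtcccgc
Chac1 (chr2:119351041-119351064, minus strand): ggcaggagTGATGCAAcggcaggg
Herpud1 (chr8:94386309-94386332, minus strand): gtgcgggcTGATGCAAcccgccgt

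The heat shock branch held the member with the widest range. Hspa1a, which encodes the inducible HSP70, was at 9.12, 11.54, 7.52 and 12.81 in KO replicates 1 to 4 and at 9.82, 7.82, 9.64, 7.82 and 12.44 in WT replicates 1 to 5. High and low arrays occurred in both genotypes, and the whole range of 5.29 on the log2 scale is 39.1-fold. The difference between genotypes was 0.74 with an SE of 1.30 (interval -2.23 to 3.71), and -0.11 without KO replicate 4. Hspa1b, the near-identical neighbour, lies on a probeset shared with Hspa1a, and whether the Hspa1a probeset tells the pair apart was not tested. Their promoter windows are equal at 296 of 300 bases (98.7%). Shown are the 250 bases before the Hspa1a start (chr17:34972157-34972406, minus strand), since this was the gene with the widest range; capitals mark the 2-unit heat shock element GAANNTTC, which was in 7.86% of all windows on either strand.
Hspa1a promoter: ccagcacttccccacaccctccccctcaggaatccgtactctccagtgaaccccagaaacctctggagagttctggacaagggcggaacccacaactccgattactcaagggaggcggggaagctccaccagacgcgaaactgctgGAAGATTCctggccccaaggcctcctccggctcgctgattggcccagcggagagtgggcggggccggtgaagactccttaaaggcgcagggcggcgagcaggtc

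Hsph1 (HSP110), a nucleotide exchange factor of HSP70, was at 10.34, 11.06, 11.19 and 12.23 in KO and 11.71, 11.41, 11.19, 10.60 and 10.84 in WT. KO replicate 4 was highest and KO replicate 1 lowest, and the difference was 0.055 (SE 0.37). Dnajb1 (HSP40), the co-chaperone that delivers clients to HSP70, was at 8.44, 9.00, 8.34 and 8.68 in KO and 8.42, 8.13, 8.13, 8.42 and 8.41 in WT. WT replicates 2 and 3 were lowest and equal, KO replicates 2 and 4 highest, and the difference of 0.31 (SE 0.14) had an unadjusted limma p of 0.0556. Hsp90aa1, the inducible cytosolic HSP90, ran from 15.51 to 16.04 in KO and 15.75 to 15.89 in WT (difference -0.057, SE 0.098). Probesets that Hsp90aa1 shares with predicted genes were not used. Hspb1 (HSP27), a small heat shock protein, was at 6.24, 6.27, 6.21 and 6.82 in KO and 6.30, 5.79, 6.24, 6.06 and 6.24 in WT, a difference of 0.26 (SE 0.15) with KO replicate 4 high and WT replicate 2 low.

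Hspa8, the constitutive HSP70, ran from 18.70 to 18.95 over all arrays, near the table's highest value of 19.45, and differed by 0.036 (SE 0.053). It was read from 1 of 4 probesets with its symbol alone. Their identifiers place them on chromosomes 6, 14 and 1, while RefSeq has the gene on chromosome 9, so what they read is uncertain. Bag3, which links HSP70 to the autophagy of damaged proteins, was at 5.73, 5.91, 5.73 and 5.84 in KO and 5.67, 5.66, 5.59, 5.51 and 5.73 in WT. The groups met at 5.73, and the difference of 0.17 (SE 0.059, interval 0.036 to 0.31; 1.13-fold) had an unadjusted limma p of 0.0190, an adjusted p of 0.786 and an exact permutation p of 0.0317. Its signal was close to the mean background of 5.37. With each array centred on its median it differed by 0.12 (exact permutation p = 0.206) and with quantile normalization by 0.15 (exact permutation p = 0.127).

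The mitochondrial chaperonin genes Hspd1 (HSP60) and Hspe1 (HSP10) fold proteins imported into mitochondria and are read from a shared promoter in opposite directions. Hspd1 ran from 11.16 to 11.50 in KO and 11.24 to 11.67 in WT, a difference of -0.11 (SE 0.10). Hspe1 was at 11.62, 11.54, 11.67 and 11.49 in KO and 11.33, 11.56, 11.50, 11.43 and 11.05 in WT, a difference of 0.21 (SE 0.10, exact permutation p = 0.0794). The pair thus lay on opposite sides of 0, each within its interval. A promoter window of Hspd1 shares 285 of 300 bases with that of Hspe1, and both hold the 3-unit heat shock element GAANNTTCNNGAA, which was in 0.603% of all windows; Hsph1 was the one other member with it. The match is shown on the strand of Hspe1, with 8 bases on either side, because both genes have it; its near end lies 72 bases before the start of Hspe1.
Hspe1 and Hspd1 (chr1:55088056-55088084, plus strand): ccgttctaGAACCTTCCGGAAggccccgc

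Co-variation among arrays was described with the mean of each genotype removed, over the 28 members above background and the same 9 arrays. All genes of an array share its RNA, amplification and hybridisation, so these correlations describe the set of arrays. The median correlation between pairs was 0.57 within the heat shock branch, 0.52 within the ER chaperones, 0.34 within the integrated stress branch, 0.32 within the degradation branch and 0.015 among the sensors. It was 0.19 over all members and 0.023 over all pairs of the 16023 genes above background. With each array centred on its median the sensors were at 0.54 and all members at 0.44, and with quantile normalization at 0.17 and 0.37. Without KO replicate 1 and WT replicate 5 the heat shock value was 0.52 and the degradation value 0.33, while that of the ER chaperones was 0.052 and that of the integrated stress branch -0.29. Without WT replicate 5 alone the ER chaperone and integrated stress values were 0.32 and -0.39. Without KO replicate 4 the heat shock value was 0.33.

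**Figure D4:**
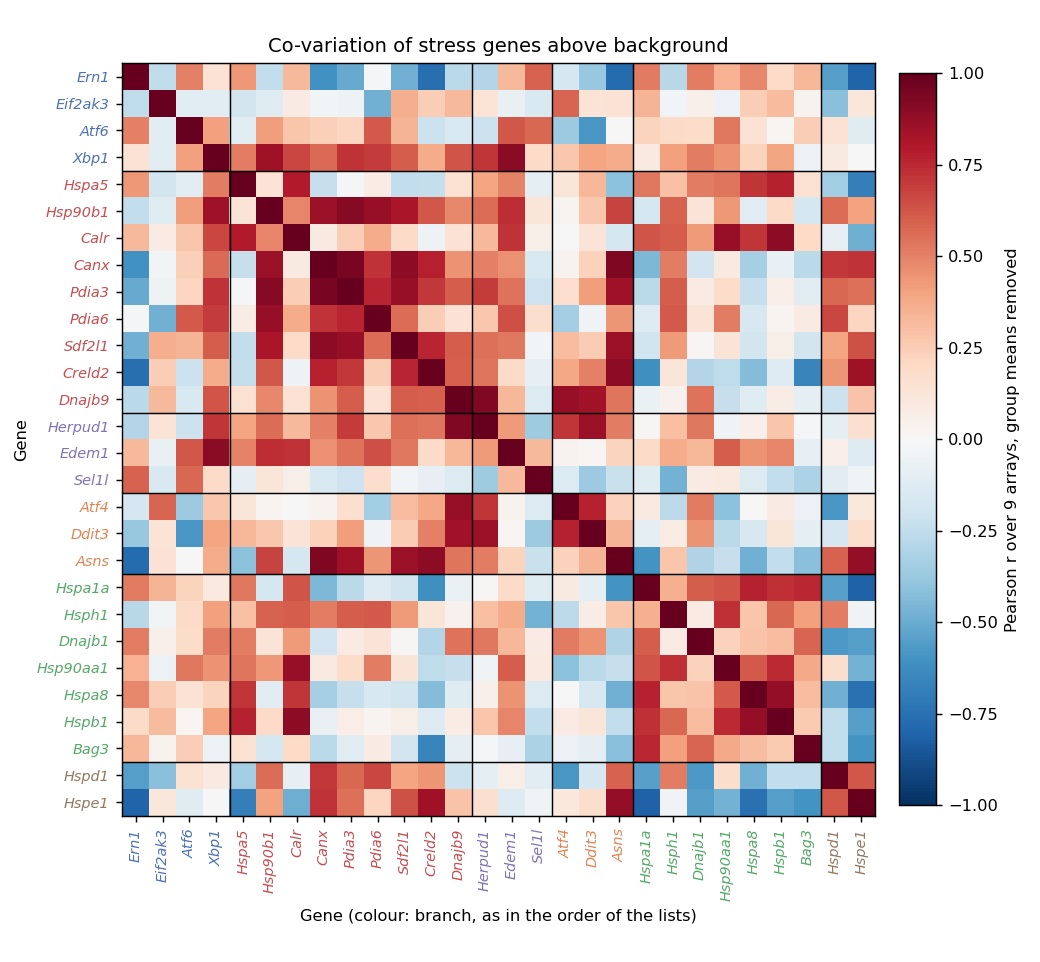
Pearson correlation of each pair of the 28 stress genes above background over 9 arrays after the genotype means were removed, from -1 (blue) to 1 (red); lines separate the branches. A red block spans Hsp90b1, Canx, Pdia3, Pdia6 and Sdf2l1 and extends to Asns, and another spans the heat shock genes and extends to Hspa5 and Calr.

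Single pairs divided in the same way. Canx and Pdia3 correlated at 0.95 over 9 arrays and at -0.38 without KO replicate 1 and WT replicate 5, and Hsp90b1 and Pdia3 at 0.91 and -0.13. By contrast, Dnajb9 and Herpud1 correlated at 0.92 and 0.88, Ddit3 and Herpud1 at 0.87 and 0.94, and Atf4 and Dnajb9 at 0.87 and 0.98. Xbp1 and Edem1, both high in WT replicate 4, correlated at 0.90 and 0.84. Hspa5 and Calr went at 0.80 and 0.81, and Calr and Hspb1, both highest in KO replicate 4, at 0.90 and 0.92. Hspa1a was most like Hspa8 (0.77 and 0.63) and least like Hspe1 (-0.81). The members most like Atf4, Ddit3 and Calr were Dnajb9, Herpud1 and Hspb1, each the highest of many correlations. Of the 28 members above background, 3 are in the integrated stress branch and 9 among the ER chaperones. Most candidate partners thus lay in other branches, and a partner from another branch is not a result in itself.

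Of 12 pairs set for a test without removal of group means, 10 were measured, and 0 passed after adjustment over the 10 pairs (exact permutation of pairings). At an unadjusted exact permutation p under 0.05 there was 1, Dnajb1 with Fos. Hspa5 correlated with the other ER chaperone genes Hsp90b1 and Sdf2l1 at r = 0.080 (rho 0.10, exact permutation p = 0.826, adjusted 0.826) and r = -0.13 (rho -0.14, exact permutation p = 0.734, adjusted 0.826). With Dnajb1 of the heat shock branch it correlated at r = 0.64 (rho 0.55, exact permutation p = 0.0738, adjusted 0.282). That value was 0.44 without WT replicate 2 and KO replicate 4, the arrays farthest from the Hspa5 median, and 0.94 (adjusted exact permutation p = 0.0347) without KO replicate 2. Without WT replicates 2 and 3 it was 0.19 (exact permutation p = 0.749), and with group means removed 0.52. With Ddit3 it was r = 0.51 (rho 0.24, exact permutation p = 0.161, adjusted 0.403), 0.35 without WT replicate 2 and KO replicate 4, and 0.15 without WT replicates 2 and 3. Trib3 was below background in every array, so its pair with Ddit3 was counted in the adjustment and is not read. Atf4 with Asns gave r = 0.20, and the chaperonin pair Hspd1 and Hspe1 gave r = 0.24, or 0.62 with group means removed. Hsph1 and Dnajb1 gave r = 0.099. The adjusted p of each of these 3 pairs was 0.826 (exact permutation).

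Over all 9 arrays Dnajb1 and Fos correlated at r = 0.78 (exact permutation p = 0.024, adjusted 0.24), and at 0.65 with group means removed. For Ddit3 and Fos the values were r = 0.60 (exact permutation p = 0.0847, adjusted 0.282) and 0.38. Fos fell into 2 separate groups of arrays. Its pairs were thus also read within the 7 arrays other than WT replicates 2 and 3, a choice made after seeing the data. There Dnajb1 and Fos correlated at r = 0.80 (exact permutation p = 0.0460, adjusted 0.460 over the 10 pairs), with KO replicate 2 highest for both. Ddit3 and Fos correlated at r = 0.51 (exact permutation p = 0.236, adjusted 0.699), and WT replicate 5 was the array with the lowest Ddit3 and a Fos of 14.65.

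**Figure D5:**
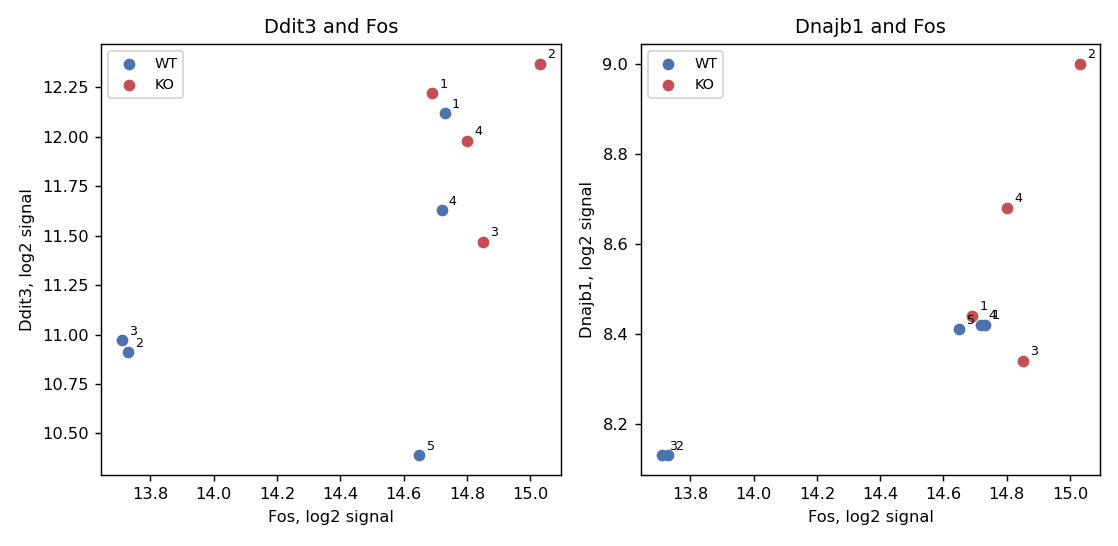
Log2 signal of Ddit3 (left) and Dnajb1 (right) against that of the immediate early gene Fos in 5 WT (blue) and 4 KO (red) arrays, with replicate numbers. WT replicates 2 and 3 lie apart with Fos at 13.71 and 13.73, and Dnajb1 is lowest in these 2 arrays.

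Other genes of the same pathways, listed apart from the 36, showed few differences. Of 29 measured ER stress genes, 13 had higher and 16 lower means in KO (median -0.013), and 0 reached an unadjusted p under 0.05 in limma. Of 23 integrated stress genes, 14 had higher and 9 lower means (median 0.023), and 1 reached that level. It was Ddit4, an inhibitor of mTORC1 induced by ATF4 and by other stresses, at 7.15, 7.05, 6.34 and 6.51 in KO and 6.82, 5.75, 5.83, 5.93 and 6.08 in WT (difference 0.68, SE 0.26, limma adjusted p = 0.786, exact permutation p = 0.0635). Its KO arrays exceeded 4 of the 5 WT arrays, and WT replicate 1 lay within their range. Of 28 heat shock genes, 9 had higher and 19 lower means (median -0.050), and Hspa2, an HSP70 gene known from the testis, reached that level with 5.78 to 6.20 in KO and 5.62 to 5.85 in WT (difference 0.23, SE 0.087, exact permutation p = 0.0397). Its signal was close to the mean background of 5.37, and its highest value was in KO replicate 1, the array with the highest background. Together 2 of 80 (2.5%) had higher means at an unadjusted p under 0.05 in limma, against 3.82% of all genes, none lower, and 0 passed after adjustment (adjusted p = 0.786 for the smallest). The count of 2 was 1 without KO replicate 1 or 2 or WT replicate 2, 4 or 5, 4 without WT replicate 3 and 5 without KO replicate 3. Of the integrated stress list, 2 genes were singled out after their values were seen: Atf3, at 10.10 and 9.68 in WT replicates 2 and 3 and 11.22 to 11.78 elsewhere, and Ppp1r15a (GADD34), at 11.30 and 10.64 there and 11.59 to 13.01 elsewhere. Atf3 is itself on the immediate early list.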

How the data were processed

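Signals were measured in LSK cells of 9 mice (4 KO, 5 WT) on Affymetrix whole-transcript arrays, 1 per mouse. Per the labels each replicate is a different mouse. The deposited table holds log2 signals of 72688 probesets that the authors summarised; Partek 6.6 is named in the submitters' processing notes, and for background correction, normalization and log base nothing was given in the sources used here. The values, 1.84 to 19.45, were read as log2, and every fold rests on that reading. The 6732 control probesets were left out. Of 65956 others, 30604 had 1 symbol, 2146 several and 33206 none here; 827 symbols were updated to RefSeq GRCm38.p6 through Entrez identifiers. The brightest probeset by mean stood for each of 30142 genes, and 355 genes had more than 1.

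The genotypes were compared by limma (version 3.58.1, under R 4.3.3; lmFit, eBayes without trend, all genes, no covariate; Benjamini-Hochberg, threshold 0.05; intervals at 95%), which was tested on simulated data. Single values and correlations were tested by exact two-sided permutation over all splits of the arrays or all pairings. The labels name no batch. The number of arrays limits the precision. Members, lists, pairs and tests were chosen with earlier results of these data known, so no limma p was adjusted over a list alone and no list was tested; correlation p-values were adjusted over the 10 measured pairs, a chosen family. All members are named, with up to 2 genes per direction from each further list by smallest p under 0.05, and Abi1. Promoter letters are those of RefSeq windows, found for 30 of the 36 symbols. Alternatives were quantile normalization, median centring, dim genes left out, all probesets averaged, another variance prior, array weights, a replicate block and arrays left out.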

Additional observations from a re-analysis of the deposited data

Results flagged for a closer look

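Single arrays that lay far from the rest of their group were looked for in each gene and group of 4 or 5 arrays (Dixon's test at 95%). Of 60 groups, 15 were marked (25.0%), where chance marks about 1 in 20. The arrays are shared between genes, so the marks are not independent. The share over all genes is not given here, so the count cannot be read as particular to the stress genes. WT replicate 5 gave 5 of them. It was low for Asns at 8.83 (others 10.55 to 11.08), Creld2 at 11.02 (11.60 to 11.75), Canx at 13.79 (14.24 to 14.33) and Pdia3 at 13.43 (13.72 to 13.76), and high for Hsp90aa1 at 15.89 (15.75 to 15.76). KO replicate 4 was high for Hspa5 at 14.34 (13.54 to 13.64), Hspb1 at 6.82 (6.21 to 6.27) and Hspa8 at 18.95 (18.83 to 18.85). KO replicate 1 was low for Atf6 at 10.47 (10.99 to 11.03) and Pdia3 at 13.47 (13.72 to 13.73).

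The other 5 were Atf6 in WT replicate 1 at 10.58 (10.99 to 11.07), Eif2ak3 in KO replicate 3 at 7.67 (7.81 to 7.83) and in WT replicate 3 at 7.98 (7.81 in each other), Creld2 in KO replicate 2 at 11.51 (11.60 to 11.61) and Chac1 in WT replicate 2 at 4.56 (4.74 to 4.80), below background. Several rest on equal values among the other arrays, which make a small gap stand out.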

How the results depend on the processing

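No member passed the adjusted threshold in limma under any of the 18 alternatives. The all-gene count was 2 in place of 1 with array weights. The count of members at an unadjusted p under 0.05, 4 as reported, was 2 with median centring, with the replicate block, without KO replicate 1 and WT replicate 5, and without WT replicates 2 and 3 (a choice made with the data in view), and 1 to 5 with 1 array left out. These were not always members of the 4: Atf4 and Dnajb9 with centring, Dnajb9 and Bag3 without KO replicate 1 and WT replicate 5, but Bag3 and Asns (lower in KO, -0.31) with the block, and Atf4 and Hspe1 without WT replicates 2 and 3. The further lists gave 0 without KO replicate 1 and WT replicate 5, 4 without WT replicates 2 and 3, and 1 to 5 with 1 array left out. The labels do not say that replicate numbers pair the mice, so the block is given here alone. Correlations of same-numbered deviations were -0.18, 0.15, -0.013 and 0.27, which cannot settle whether such mice were handled together.

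The sign of the difference held in 13 of 30 members, among them Atf4, Ddit3, Dnajb9, Bag3 and Hspa5. With array weights Atf6 was 0.12, Xbp1 0.12, Hsp90b1 0.048, Pdia3 0.011, Creld2 -0.024, Edem1 0.029, Asns -0.015 and Hsp90aa1 0.067. With median centring Canx was -0.042, Creld2 -0.0090, Chac1 -0.016 and Hspa8 -0.011, and with quantile normalization Canx was -0.085, Chac1 -0.010 and Hspa8 -0.026. With the replicate block Canx was -0.093, Sdf2l1 -0.060, Creld2 -0.093, Trib3 0.0025, Asns -0.31 and Hsph1 -0.023. Without KO replicate 1 and WT replicate 5, Ern1 was 0.031 (-0.28 to -0.033 with 1 array left out), Atf6 0.12, Xbp1 0.099, Hsp90b1 0.00080, Canx -0.0067, Creld2 -0.099, Asns -0.17 and Hsp90aa1 0.042. Without WT replicates 2 and 3, Pdia3 was 0.023 and Chac1 -0.016.

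With 1 array left out the sign changed for Asns (-0.31 to 0.26), Atf6 (-0.14 to 0.079), Canx (-0.093 to 0.091), Chac1 (-0.010 to 0.051), Creld2 (-0.093 to 0.090), Edem1 (-0.30 to 0.0073), Hsp90aa1 (-0.16 to 0.016), Hsp90b1 (-0.12 to 0.081), Hspa1a (-0.11 to 1.65, and 1.85 without KO replicate 1 and WT replicate 5), Hsph1 (-0.29 to 0.34), Pdia3 (-0.070 to 0.053), Pdia6 (-0.26 to 0.0040), Sdf2l1 (-0.060 to 0.39), Trib3 (-0.033 to 0.021) and Xbp1 (-0.15 to 0.18). It also changed for the correlations of Atf4 with Asns (-0.60 to 0.37), Hspa5 with Hsp90b1 (-0.18 to 0.27, and 0.41 without KO replicate 1 and WT replicate 5) and Sdf2l1 (-0.37 to 0.059), Hspd1 with Hspe1 (-0.037 to 0.44) and Hsph1 with Dnajb1 (-0.20 to 0.25). Atf4 with Asns was -0.45 without KO replicate 1 and WT replicate 5, and Hspa5 with Sdf2l1 0.35 without WT replicates 2 and 3. Pairs past the adjusted threshold were 0 to 1 with 1 array left out.

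Co-variation rose with median centring to 0.54 among sensors, 0.66 among ER chaperones, 0.56 in degradation, 0.45 in the integrated stress branch and 0.44 over all members, and with quantile normalization to 0.17, 0.47 and 0.37 among sensors, in degradation and over all members. Centring shifts all genes of an array by the same amount, and KO replicate 1 had the array median farthest from the rest (5.33, others 5.08 to 5.15). The value over all genes is not given here for these settings, so the rise cannot be read as particular to the stress genes. Without KO replicate 1 and WT replicate 5 co-variation was 0.17 among sensors, 0.052 among ER chaperones and -0.29 in the integrated stress branch. Without WT replicates 2 and 3 it was 0.63 among ER chaperones and 0.66 in the integrated stress branch. With 1 array left out it ran from -0.046 to 0.23 among sensors, 0.32 to 0.61 among ER chaperones, -0.0045 to 0.43 in degradation, -0.39 to 0.51 in the integrated stress branch, 0.33 to 0.64 in heat shock and 0.13 to 0.26 over all members. The cause was not tested. Branch medians of the KO minus WT differences stayed within 1 SD of the array scores, but several changed sign. For the sensors it was -0.059 as reported and 0.065 without KO replicate 1 and WT replicate 5. Without WT replicate 5, the ER chaperones went from 0.038 to -0.070 and the chaperonin from 0.046 to -0.0175. Degradation went from -0.0745 to 0.029 with array weights. Integrated stress went from 0.0795 to 0.31 with dim genes left out. Leaving out dim genes removed Trib3 and Chac1, and the pairs with Pdia4 and Dnaja1 could not be computed.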
